A study of Mus musculus with 6 samples.

Results

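The genes described here encode the motor arms of the sperm tail and cilium and the parts that position and regulate them: axonemal dynein heavy, intermediate and light chains, dynein assembly factors, radial spoke proteins, subunits of the nexin-dynein regulatory complex and proteins of the Cfap family. They were chosen by name and gene type, as every protein-coding gene of the deposited table whose symbol begins with Dnah, Dnai or Dnaic, Dnal or Dnali, Dnaaf, Cfap, Rsph or Drc followed by a digit. This gave 48 genes of the 44065 in the table: 11 heavy chains, 1 intermediate chain, 3 light chains, 4 assembly factors, 6 radial spoke genes, 2 Drc genes and 21 Cfap genes. The study sequenced testis RNA of male C57BL/6 mice, 6 weeks old at the start, after 10 weeks in a sedentary or a control group. Each of the 2 groups, sedentary and control, has 3 libraries that the labels call biological replicates. Mice with physical activity compensation are named as a further group and were not analysed here. Both groups share the strain, sex, tissue and preparation, with total RNA depleted of ribosomal RNA, so RNA with and without a poly(A) tail was sequenced. The labels name testicular tissue and no sorting of cells, so every value is an average over germ cells and somatic cells.

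The axoneme is the microtubule scaffold of cilia and of the sperm flagellum. Dynein heavy chains are its ATP-driven motors; outer arm motors mainly set beat frequency, and inner arm motors mainly shape the bend. Radial spokes and the nexin-dynein regulatory complex pass signals between the central pair of microtubules and the arms, and assembly factors fold the arms in the cytoplasm before they are moved into the axoneme. In the testis these genes are transcribed mainly in spermatocytes and spermatids, where the flagellum is prepared and built. Loss of many of them leaves sperm immotile or with short, malformed tails.

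Promoter windows place the genes that the results turn on. RefSeq windows, 250 bases before to 50 bases after an annotated start on build GRCm38.p6, were matched to 38 of the 48 genes, with 41 windows in all. Shown are the 2 heavy chains with the lowest p-values in the comparison below. Also shown are the 2 other genes with the lowest p-values that have a window. The last is Drc1, the gene of lowest p-value whose window holds the RFX half-site in the spelling GTTGCCA. Each is written 5′ to 3′ on the gene's strand. Capitals mark any match on either strand to the RFX half-site GTTGCCA, the cAMP response element TGACGTCA or the CCAAT box CCAAT. Coordinates are chr14:26691304-26691603 on the plus strand for Dnah12, chr6:73221582-73221881 on the minus strand for Dnah6, chr15:79774418-79774717 on the minus strand for Dnal4, chr17:46144151-46144450 on the minus strand for Rsph9 and chr5:30281143-30281442 on the plus strand for Drc1.
Dnah12: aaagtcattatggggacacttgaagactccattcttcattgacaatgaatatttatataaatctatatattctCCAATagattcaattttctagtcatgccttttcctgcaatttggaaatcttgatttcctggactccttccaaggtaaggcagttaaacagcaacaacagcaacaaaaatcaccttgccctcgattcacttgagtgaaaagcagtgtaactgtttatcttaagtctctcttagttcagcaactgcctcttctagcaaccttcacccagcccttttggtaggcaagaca
Dnah6: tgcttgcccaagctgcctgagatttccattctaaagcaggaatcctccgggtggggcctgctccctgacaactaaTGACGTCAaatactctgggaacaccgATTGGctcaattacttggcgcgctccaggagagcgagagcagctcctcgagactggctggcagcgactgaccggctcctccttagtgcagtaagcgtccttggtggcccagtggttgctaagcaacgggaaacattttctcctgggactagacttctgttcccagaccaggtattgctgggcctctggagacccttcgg
Dnal4: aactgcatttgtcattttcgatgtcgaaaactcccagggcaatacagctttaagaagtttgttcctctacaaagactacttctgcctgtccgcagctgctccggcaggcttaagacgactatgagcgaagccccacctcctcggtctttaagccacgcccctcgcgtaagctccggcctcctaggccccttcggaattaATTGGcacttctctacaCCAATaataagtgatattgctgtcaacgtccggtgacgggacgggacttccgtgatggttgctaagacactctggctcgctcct
Rsph9: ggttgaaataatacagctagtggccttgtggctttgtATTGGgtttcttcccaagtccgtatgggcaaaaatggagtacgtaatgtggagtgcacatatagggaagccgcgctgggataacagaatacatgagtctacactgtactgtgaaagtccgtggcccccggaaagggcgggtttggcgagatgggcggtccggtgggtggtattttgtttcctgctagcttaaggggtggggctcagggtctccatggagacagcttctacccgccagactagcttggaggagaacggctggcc
Drc1: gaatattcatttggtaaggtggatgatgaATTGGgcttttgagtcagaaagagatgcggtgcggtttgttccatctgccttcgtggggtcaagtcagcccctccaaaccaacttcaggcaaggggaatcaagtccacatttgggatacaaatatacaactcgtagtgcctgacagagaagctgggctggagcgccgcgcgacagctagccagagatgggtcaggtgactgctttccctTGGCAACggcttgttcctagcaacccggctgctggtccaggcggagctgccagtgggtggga
The matches marked in these windows did not overlap each other. The RFX half-site, part of the sequence bound by RFX factors, which act at many ciliary genes, was present in 7 of the 41 windows (17.1%) and in 4.38% of all 32851 windows of this length. The 7 genes were Cfap161, Cfap20, Cfap44, Cfap58, Dnaaf2, Dnah10 and Drc1. Only the spelling GTTGCCA was searched, on both strands, so a window without it may hold another form of the site. The cAMP response element, which the testis factor CREM can bind, was present in 1 of 41 windows (2.44%), that of Dnah6, and in 1.79% of all windows. The CCAAT box was present in 18 of 41 windows (43.9%) and in 37.4% of all windows. The median GC content was 52.7% in the 10 heavy chain windows, 55.3% in the 31 windows of the other genes and 52.7% over all windows. These are descriptions of letters, not of bound sites.

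Whole reads could be recovered from the deposited values and numbered between 34176662 and 38148228 in the sedentary libraries and between 28495596 and 37654913 in the control libraries. In each library 27391 to 28627 genes were seen with 1 read or more. The tissue label was met by its markers. The summed FPKM of 12 elongating spermatid markers was 32588 to 35066 in sedentary testes and 25403 to 30133 in control testes, and all 12 had a log2 fold change above 0, with a median of 0.24. The sum of 14 spermatocyte markers was 3873 to 4054 FPKM in sedentary and 3566 to 3974 in control testes, with 10 of 14 below 0 and a median log2 fold change of -0.10. Round spermatid markers summed to 1139 to 1390 FPKM in sedentary and 1145 to 1321 FPKM in control testes, with 6 of 12 tested markers above 0 and a median of 0.00. Sertoli cell markers summed to 825 to 946 FPKM in sedentary and 664 to 727 FPKM in control testes, with 13 of 13 above 0, and Leydig cell markers to 960 to 1386 FPKM in sedentary and 1082 to 1532 FPKM in control testes, with 7 of 8 below 0. Spermatogonial markers summed to 88.0 to 99.3 FPKM in sedentary and 84.9 to 98.5 FPKM in control testes. Multiciliated cells, as in the efferent ducts next to the testis, use the same axonemal genes. Of 10 of their markers that were measured, 5, namely Mcidas, Gmnc, Trp73, Sntn and Cdhr3, were under 0.5 FPKM in all 6 libraries. The summed level of the 10 was 131 to 168 FPKM in sedentary and 137 to 153 FPKM in control testes. Nearly all of this sum came from the other 5 markers, which passed the filter on low values. By sign, 3 of these 5 were lower in sedentary testes and 2 were higher (median -0.05, log2 scale). Whether multiciliated cells were present in the tissue was not tested. The part that any of these shifts in cell markers has in the results below was not tested, and in whole testis fewer cells of a type and less RNA per cell cannot be told apart.

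Of the 48 genes, 45 had at least 0.5 FPKM in at least 3 of the 6 libraries and were tested among 19201 genes. None of the 45 passed limma's moderated test on log2(FPKM + 0.5) at an adjusted p under 0.05 (Benjamini-Hochberg over all tested genes), where 5 of all genes passed (0.026%), all lower in sedentary testes. The lowest adjusted p of the 45 was 0.199. At an unadjusted p under 0.05, 8 of the 45 were higher, against 10.1% of all tested genes, and 2 were lower, against 7.26%. The groups did not overlap for 11 higher genes (13.7% of all tested genes) and 5 lower genes (10.8%). With limma's voom on the recovered reads, 1 of the 45, Dnah12, was called lower and 0 were called higher, against 1.12% and 0.318% of all tested genes; 4 and 9 had an unadjusted p under 0.05, against 9.58% and 10.7%. The fold changes of the 45 were small, with 25 above 0 and 20 below 0 and a median of 0.07 on the log2 scale, against 0.01 over all tested genes, of which 52.2% were above 0. They were not spread evenly over the roles: 9 of 9 tested heavy chains were below 0, with a median of -0.12, and 25 of the 36 other genes were above 0, with a median of 0.09.

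**Figure D1:**
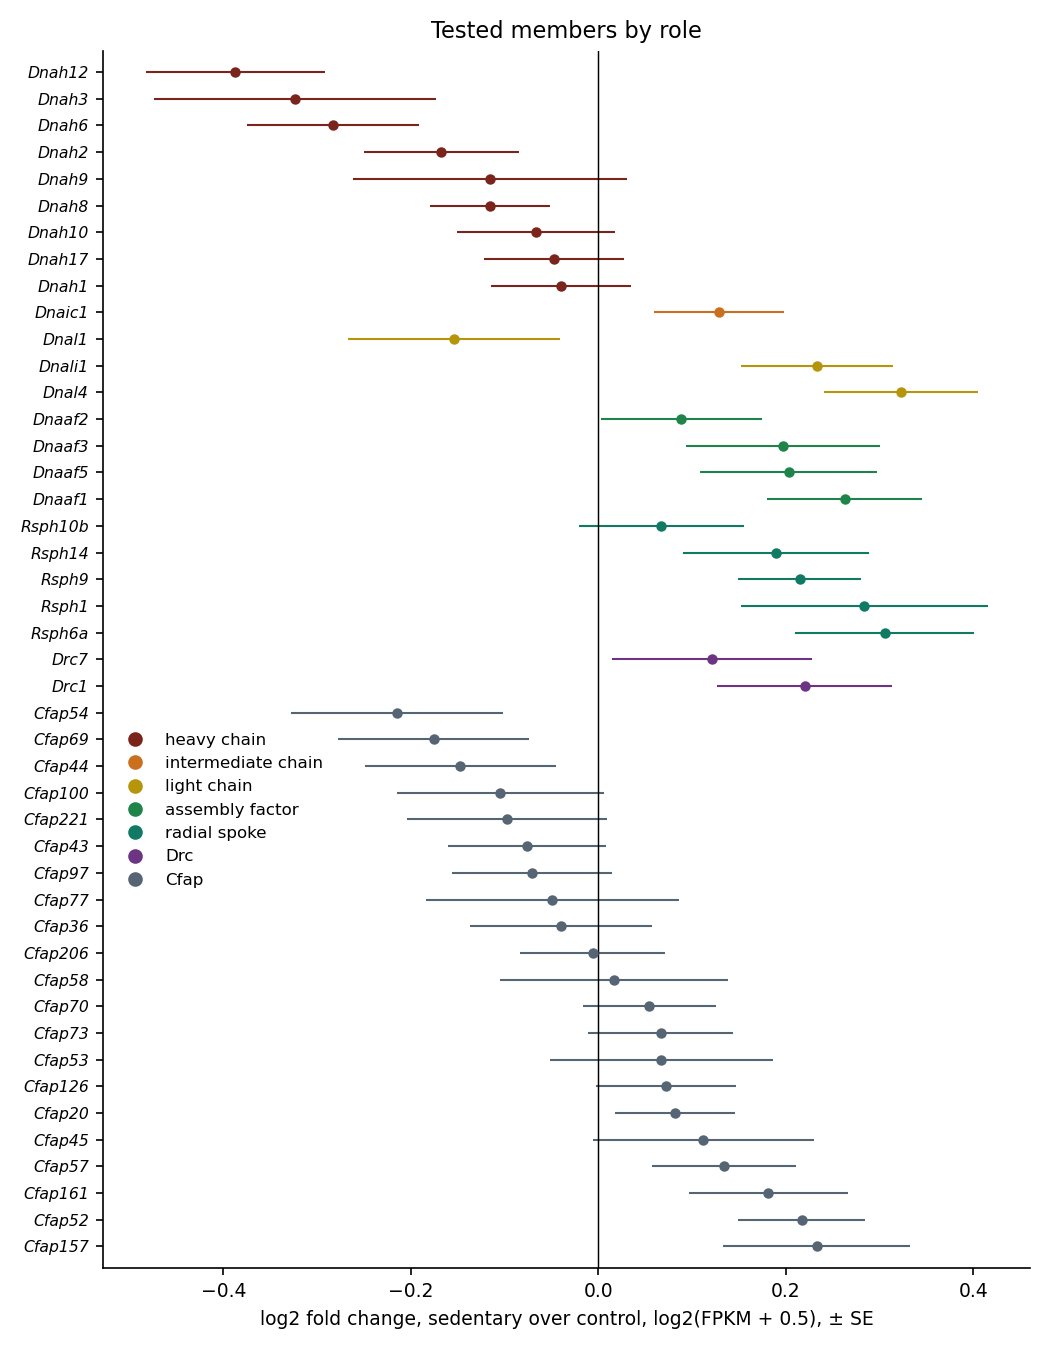
Log2 fold change of sedentary over control testes on log2(FPKM + 0.5) (x axis) for each of the 45 tested genes (y axis), coloured by role; points are the fitted fold change and bars ± 1 SE, 3 libraries per group. The 9 heavy chains lie between -0.39 and -0.04, the 5 radial spoke genes and 4 assembly factors lie above 0, and the 21 Cfap genes lie on both sides.

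The outer arm heavy chains of the sperm tail were the most abundant of the motors. Dnah8, on chromosome 17, stood at 84.7, 81.0 and 79.2 FPKM in sedentary replicates 1, 2 and 3, against 87.8, 89.5 and 88.1 FPKM in control replicates 1, 2 and 3. The groups did not overlap, with every sedentary library below every control library. The means were 81.6 ± 2.81 and 88.5 ± 0.94 FPKM (SD, n = 3 each), a log2 fold change of -0.12 ± 0.06 (SE) with a 95% interval of -0.26 to 0.03 and an adjusted p of 0.375 with limma. Dnah17, the other outer arm motor of sperm, on chromosome 11, stood at 33.3, 29.2 and 31.3 FPKM in sedentary testes, against 31.6, 33.5 and 31.9 FPKM in control testes. Its groups overlapped, and the log2 fold change of -0.05 had an interval of -0.22 to 0.12 (limma, adjusted p = 0.771).

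The outer arm chains known from motile cilia were low, near the filter of 0.5 FPKM or below it. Dnah9 stood at 0.515, 0.458 and 0.390 FPKM in sedentary and 0.515, 0.502 and 0.582 FPKM in control testes, with overlapping groups and a log2 fold change of -0.12 ± 0.15 (SE). Dnah5, the motor often mutated in primary ciliary dyskinesia in humans, was at 0.230, 0.130 and 0.121 FPKM in sedentary and 0.160, 0.225 and 0.247 FPKM in control testes, from 261 and 326 reads in all, and was not tested. Dnah11 was at 0.0435, 0.0750 and 0.0714 FPKM in sedentary and 0.0935, 0.124 and 0.0876 FPKM in control testes, from 97 and 146 reads, and was not tested either. Every sedentary library of Dnah11 was below every control library, while the groups of Dnah5 overlapped. These 3 genes were thus more than an order of magnitude below Dnah8 and Dnah17 on the same per-length scale, in both groups.

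The inner arm heavy chains held the largest differences. Dnah12, a single-headed inner arm chain on chromosome 14, stood at 11.8, 11.5 and 10.2 FPKM in sedentary testes, against 14.3, 13.7 and 16.3 FPKM in control testes. The groups did not overlap, and the highest sedentary library was below the lowest control library. The means were 11.2 ± 0.861 and 14.8 ± 1.37 FPKM (SD, n = 3 each), from 13879 and 17633 reads, and the log2 fold change was -0.39 ± 0.10 (SE), with an interval of -0.61 to -0.17. On FPKM its adjusted p was 0.199 and on the recovered reads 0.0370 (limma and voom), so it passed the threshold on the reads alone. With voom, the call on reads held when control replicate 2 (adjusted p = 0.0134) or sedentary replicate 2 (0.0347) was left out, fits in which 3.13% and 1.88% of all tested genes were called lower. It was lost when control replicate 1 (0.109), control replicate 3 (0.184), sedentary replicate 1 (0.0810) or sedentary replicate 3 (0.165) was left out.

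Dnah6, another inner arm chain, on chromosome 6, stood at 9.81, 8.93 and 8.21 FPKM in sedentary testes, against 10.6, 10.7 and 11.8 FPKM in control testes. Its groups did not overlap. The log2 fold change was -0.28 ± 0.09 (SE), with an unadjusted p of 0.0145 and an adjusted p of 0.215 on FPKM (limma) and of 0.0834 on reads (voom). Dnah3, on chromosome 7, stood at 13.8, 9.43 and 9.15 FPKM in sedentary testes, against 12.5, 14.6 and 13.2 FPKM in control testes. Here sedentary replicate 1 stood within the control range, and the other 2 sedentary libraries lay below it. The log2 fold change was -0.32 ± 0.15 (SE), with an adjusted p of 0.307 (limma). Without sedentary replicate 1 the voom fit on reads called Dnah3 lower, at -0.53 with an adjusted p of 0.0325, where 0.229% of all tested genes were called lower, and with that library it did not (0.129).

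Dnah2, on chromosome 11, and Dnah10, on chromosome 5, form the double-headed inner arm. Dnah2 stood at 13.2, 12.04 and 13.9 FPKM in sedentary and 14.1, 14.5 and 15.5 FPKM in control testes, without overlap, at a log2 fold change of -0.17 ± 0.08 (SE; limma, adjusted p = 0.333). Dnah10 stood at 8.00, 7.11 and 7.42 FPKM in sedentary and 7.52, 8.01 and 8.11 FPKM in control testes, with overlap, at -0.07 ± 0.08. Dnah1, a single-headed inner arm chain whose loss in humans and mice causes malformed sperm tails, stood at 17.8, 15.8 and 17.2 FPKM in sedentary and 17.4, 17.7 and 17.2 FPKM in control testes. Its groups overlapped and its log2 fold change of -0.04 had an interval of -0.21 to 0.13. The 6 tested inner arm chains had a median log2 fold change of -0.22 and the 3 tested outer arm chains one of -0.12; a difference between the 2 arms was not tested.

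**Figure D2:**
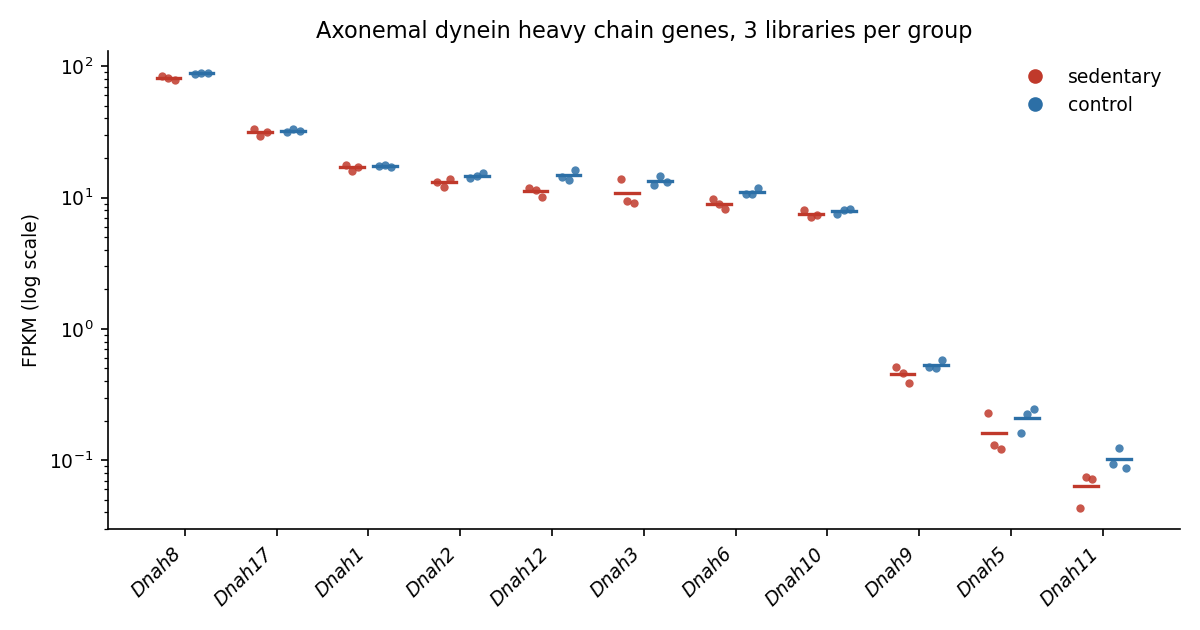
FPKM (y axis, log scale) of the 11 axonemal dynein heavy chain genes (x axis, ordered by level) in the 3 sedentary and 3 control libraries; points are libraries and lines group means. The sedentary points of Dnah12, Dnah6, Dnah2, Dnah8 and the untested Dnah11 lie below all control points, and Dnah9, Dnah5 and Dnah11 lie under 1 FPKM in every library.

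All 11 heavy chains are long genes, between 11832 and 16478 bases in the table, and most long genes of the table had a log2 fold change below 0. Of 825 tested protein-coding genes of at least 10000 bases, 594 were below 0 (72.0%), at a median fold change (log2) of -0.09, against 0.03 for the 12316 shorter ones. Set in this class, Dnah12 was lower than all but 2.42% of the long genes, Dnah3 than all but 7.76% and Dnah6 than all but 12%. Dnah2 stood at 31.5%, Dnah8 at 43.2%, Dnah9 at 43.0%, Dnah10 at 55.3%, Dnah17 at 60% and Dnah1 at 61.9%, that is, near the middle of long genes. Cfap54, a protein of the central apparatus and, at 14498 bases, the only other gene of this length among the 48, stood at 21.7%. These percentages describe ranks among genes of this length and are no test.

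Removal of each library's own trend with gene length moved the heavy chain median to -0.01, with 6 of 9 below 0, and turned Dnah17 to 0.07, Dnah1 to 0.05 and Dnah10 to 0.05. When trends with both GC content and length were removed, 9 of 9 stayed below 0 with a median of -0.07, and Dnah12, Dnah6 and Dnah2 had an unadjusted p under 0.05 (limma; 5.89% of the genes in that fit were lower at this level). In that fit Dnah12 stood at -0.21 (unadjusted p = 0.0110), Dnah6 at -0.19 and Dnah2 at -0.16. Dnah8 moved to -0.03 and Dnah17 kept -0.05. The voom call of Dnah12 was lost there, at -0.20 with an adjusted p of 0.183, where 0.386% of the genes in the fit were called. What part length, GC content or cell makeup has in the lower heavy chain values was not tested beyond these fits.

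**Figure D3:**
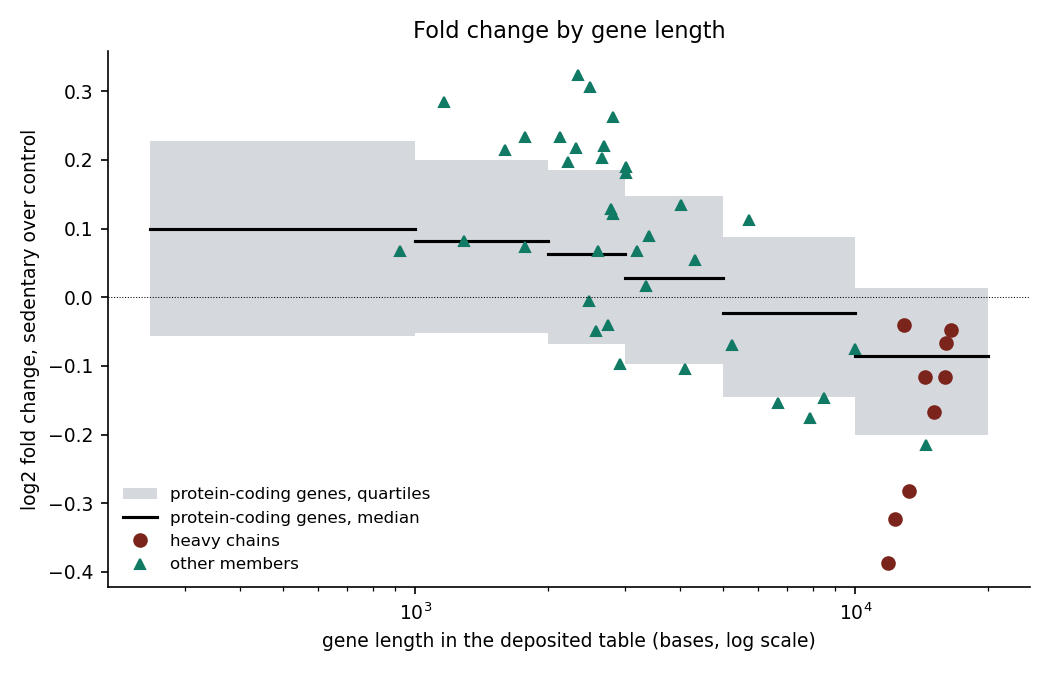
Log2 fold change, sedentary over control (y axis), against gene length in the deposited table (x axis, bases, log scale): circles are the 9 tested heavy chains and triangles the 36 other genes, and grey boxes with black lines give the quartiles and median of tested protein-coding genes in 6 length classes. The median of protein-coding genes is 0.10 under 1000 bases and -0.09 from 10000 bases. From 10000 bases, Dnah12, Dnah3, Dnah6 and Cfap54 lie below the lower quartile. In shorter classes Cfap69, Dnal1, Cfap44, Cfap100 and Cfap221 lie below it, and Dnal4, Rsph6a and Rsph1, among others, above the upper quartile.

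Among the shorter arm components, most values stood above 0. Dnal4, a dynein light chain gene on chromosome 15, stood at 43.7, 38.3 and 39.9 FPKM in sedentary testes, against 31.9, 34.8 and 30.4 FPKM in control testes. The groups did not overlap, and this was the lowest p-value among the genes other than heavy chains. The means were 40.7 ± 2.76 and 32.4 ± 2.21 FPKM (SD, n = 3 each), a log2 fold change of 0.32 ± 0.08 (SE) with an interval of 0.13 to 0.51, an unadjusted p of 0.00398 and an adjusted p of 0.200 (limma). On reads its adjusted p was 0.0663, and it passed when control replicate 2 (0.0351) or sedentary replicate 2 (0.0449) was left out, all with voom. Dnali1, the light intermediate chain of the inner arms, stood at 108, 109 and 111 FPKM in sedentary and 93.0, 102 and 84.6 FPKM in control testes, without overlap, at a log2 fold change of 0.23 ± 0.08 (SE; limma, adjusted p = 0.223). Dnaic1, the outer arm intermediate chain gene also known as Dnai1, stood at 41.1, 39.7 and 41.3 FPKM in sedentary and 37.5, 39.0 and 35.1 FPKM in control testes, also without overlap, at 0.13 ± 0.07. Dnal1, the outer arm light chain that binds a heavy chain, differed in sign from these, at -0.15 ± 0.11 with overlapping groups. It is 6677 bases long in the table, whereas Dnal4, Dnali1 and Dnaic1 are 2340, 2133 and 2782 bases.

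The 4 assembly factors were all above 0, at a median fold change (log2) of 0.20, and 1 of them, Dnaaf1, had an unadjusted p under 0.05. Dnaaf1, a leucine-rich repeat protein needed to preassemble the arms, was the second most abundant of the 48 genes, at 432, 419 and 433 FPKM in sedentary testes, against 354, 391 and 327 FPKM in control testes. Its groups did not overlap, and the log2 fold change was 0.26 ± 0.08 (SE), with an adjusted p of 0.210 on FPKM (limma) and 0.0839 on reads (voom). Dnaaf3 stood at 40.1, 32.4 and 38.4 FPKM in sedentary and 31.9, 35.2 and 29.3 FPKM in control testes, at 0.20 with overlapping groups. Dnaaf5 stood at 17.4, 14.2 and 17.3 FPKM in sedentary and 13.9, 14.6 and 13.7 FPKM in control testes, also at 0.20 and with overlap. Dnaaf2, a co-chaperone-like assembly factor, was at 0.09 ± 0.09, and its sign turned to -0.02 after TPM scaling and to -0.02 once the trends with GC content and length were taken out. The median of the 4 was 0.06 after that removal.

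All 5 tested radial spoke genes were above 0, at a median fold change (log2) of 0.21, and Rsph9 and Rsph6a had an unadjusted p under 0.05. Rsph1, a spoke head protein and the most abundant of the 48 genes, stood at 908, 981 and 969 FPKM in sedentary testes, against 846, 899 and 629 FPKM in control testes. Every sedentary library was above every control library, and control replicate 3 stood apart from the other 2 control libraries. The log2 fold change was 0.28 ± 0.13 (SE; limma, adjusted p = 0.307). Rsph6a, the spoke head protein of sperm related to Rsph4a, stood at 122, 108 and 122 FPKM in sedentary and 96.4, 105 and 84.2 FPKM in control testes. This did not overlap and gave 0.31 ± 0.10, with an adjusted p of 0.208 (limma). Rsph9, a further spoke head protein, stood at 56.7, 53.8 and 56.8 FPKM in sedentary and 48.0, 49.2 and 46.7 FPKM in control testes, without overlap, at 0.21 ± 0.07 (limma, adjusted p = 0.207). Rsph14 was at 0.19 ± 0.10 and Rsph10b at 0.07 ± 0.09. Rsph4a, the spoke head protein of motile cilia, had 1, 5 and 13 reads in sedentary and 0, 3 and 4 reads in control testes and was not tested. At control replicate 1, a count of 0 allows up to 0.0356 FPKM (3 reads, counting error only) if each read is a separate molecule. The bound is higher where both mates of a pair are counted.

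Without control replicate 2, the voom fit on reads called Rsph1 (log2 fold change 0.38, adjusted p = 0.0282), Dnaaf1 (0.33, 0.0260) and Rsph6a (0.38, 0.0273) higher beside Dnal4. Without sedentary replicate 2 it called Rsph6a (0.36, 0.0466) and Dnal4. With all 6 libraries it called 0 of the 48 genes higher, so these calls depend on which library is left out. Calls over all tested genes also differed between these fits: 2.38% were called higher without control replicate 2 and 2.18% without sedentary replicate 2, against 0.318% with all 6 libraries. Drc1, at the base of the nexin-dynein regulatory complex, stood at 60.5, 56.9 and 54.6 FPKM in sedentary and 52.8, 52.0 and 43.1 FPKM in control testes, without overlap, at 0.22 ± 0.09 (SE; limma, adjusted p = 0.277). Drc7, of the same complex, stood at 41.5, 38.2 and 35.1 FPKM in sedentary and 35.9, 39.2 and 30.5 FPKM in control testes, with overlap, at 0.12 ± 0.11.

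**Figure D4:**
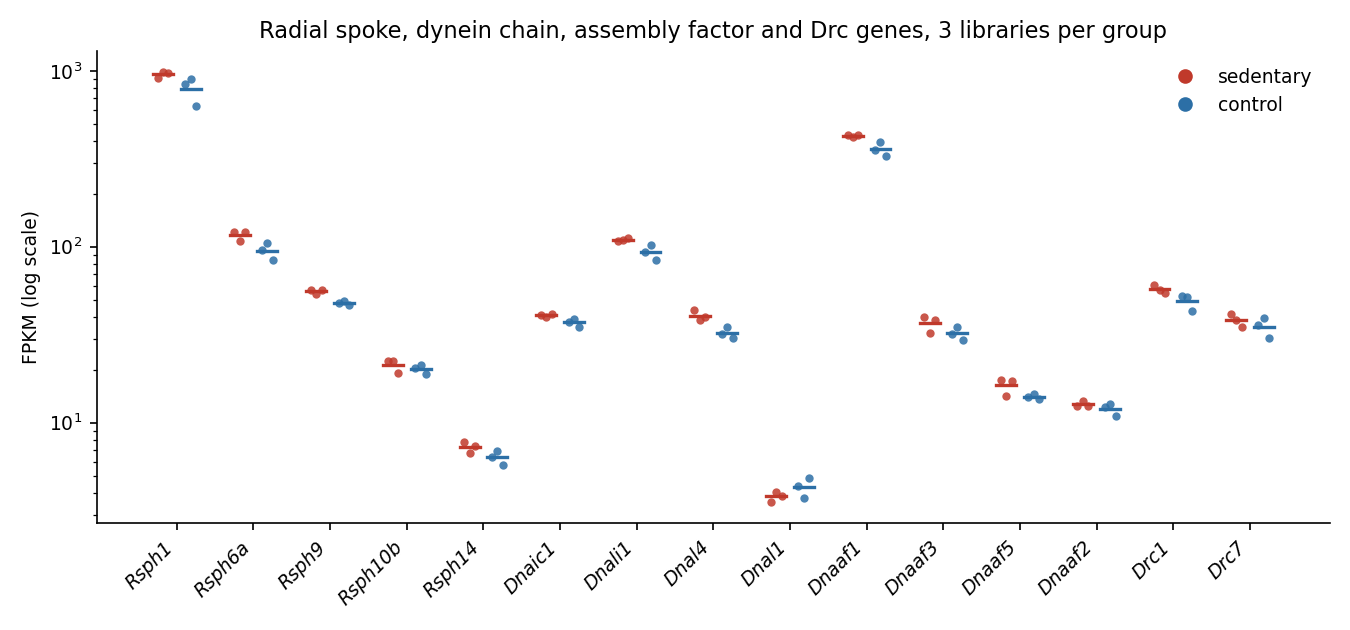
FPKM (y axis, log scale) of 5 radial spoke genes, the intermediate chain Dnaic1, 3 light chains, 4 assembly factors and 2 Drc genes (x axis) in the 3 sedentary and 3 control libraries; points are libraries and lines group means. For Rsph1, Rsph6a, Rsph9, Dnaic1, Dnali1, Dnal4, Dnaaf1 and Drc1 every sedentary point lies above every control point, and Dnal1 has the lower mean in sedentary testes.

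The 21 Cfap genes did not share a direction: 11 were above 0 and 10 below, at a median fold change (log2) of 0.02, and Cfap52 and Cfap157 had an unadjusted p under 0.05, both higher. Leaving out 1 library moved this median between -0.05, without sedentary replicate 1, and 0.09, without sedentary replicate 3. Cfap52, a protein inside the doublet microtubules, stood at 54.6, 51.6 and 50.5 FPKM in sedentary testes, against 45.8, 45.4 and 43.3 FPKM in control testes. Its groups did not overlap, and the log2 fold change was 0.22 ± 0.07 (SE; limma, adjusted p = 0.208). It kept 0.20 once the trends with GC content and length were taken out (unadjusted p = 0.00763). Cfap161, another protein inside the doublets, stood at 37.0, 37.7 and 31.6 FPKM in sedentary and 30.4, 32.2 and 30.8 FPKM in control testes, with overlap, at 0.18 ± 0.08. After the same removal it stood at 0.23 (unadjusted p = 0.00982). Cfap157, which is needed for sperm tail formation in mice, stood at 57.7, 48.9 and 51.9 FPKM in sedentary and 45.6, 49.5 and 39.8 FPKM in control testes, with overlap, at 0.23 ± 0.10 (limma, adjusted p = 0.279). Cfap57 and Cfap20 were the other Cfap genes with every sedentary library above every control library, at 0.13 and 0.08; both were singled out after their values were seen.

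The most abundant Cfap gene, Cfap206, known from Tetrahymena as a protein at the base of a radial spoke, stood at 318, 307 and 275 FPKM in sedentary testes, against 299.7, 308 and 294 FPKM in control testes. Its log2 fold change of -0.01 had an interval of -0.18 to 0.17, so a difference in either direction within these bounds remains possible. Cfap36 stood at 153, 168 and 132 FPKM in sedentary and 161, 157 and 146 FPKM in control testes, at -0.04 ± 0.10. Cfap43, of 9955 bases, whose loss in mice and humans gives sperm with multiple tail malformations, stood at 42.1, 41.9 and 35.6 FPKM in sedentary and 42.4, 42.9 and 40.6 FPKM in control testes, at -0.08 ± 0.08. Cfap44, its partner, of 8493 bases, stood at -0.15 ± 0.10, and Cfap69, of 7905 bases, at -0.18 ± 0.10, with 44.9, 48.6 and 37.2 FPKM in sedentary and 47.4, 48.5 and 51.1 FPKM in control testes. Sedentary replicate 3 was the lowest library for Cfap43, Cfap44 and Cfap69, and without it Cfap43 stood at 0.00. Cfap70, a protein of the outer arms, was at 0.05 ± 0.07, and turned to -0.06 after TPM scaling and -0.04 after quantile normalization. Cfap54 stood at 4.90, 4.53 and 3.70 FPKM in sedentary and 4.98, 5.05 and 5.37 FPKM in control testes, the only one of the 36 genes other than heavy chains with every sedentary library below every control library, at -0.21 ± 0.11 (limma, adjusted p = 0.356).

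The 36 genes other than heavy chains also differed by length. Of 29 under 5000 bases, 24 were above 0, at a median fold change (log2) of 0.13. Among them 8 were higher at an unadjusted p under 0.05 (limma; 10.1% of all tested genes were). In 11 every sedentary library was above every control library (13.7% of all tested genes). These are the same 8 and 11 genes already counted among the 45, and the cut at 5000 bases was not a planned one. Of 7 from 5000 bases, 1, Cfap45, was above 0, and the median was -0.15. By length class the median over the tested members and over all tested protein-coding genes was 0.21 and 0.08 from 1000 to 2000 bases (5 members), 0.20 and 0.06 from 2000 to 3000 (15 members), 0.08 and 0.03 from 3000 to 5000 (8 members), -0.11 and -0.02 from 5000 to 10000 (6 members), and -0.14 and -0.09 from 10000 bases (10 members). The members thus ran in the same direction over length as the whole table. Across the 45 members the log2 fold change and log2 length had a Pearson correlation of -0.75 and a Spearman correlation of -0.73, and the fold change and transcript GC content 0.61 and 0.61. Over 13141 protein-coding genes the correlation with length was -0.24 and -0.26, and over 12449 with a GC value that with GC was 0.49 and 0.52. Within the 9 heavy chains the relation to length had the other sign, 0.74 and 0.60, and that to GC content was 0.86 and 0.78. Within the 36 other members the values were -0.66 and -0.61 for length and 0.70 and 0.72 for GC content. These points are genes measured in the same 6 libraries and are not independent, so the correlations are descriptions.

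The members also varied between libraries of a group. The median of the 9 heavy chains deviated from the mean of the 6 libraries by 0.03, -0.12 and -0.10 in sedentary replicates 1, 2 and 3 and by 0.03, 0.07 and 0.13 in control replicates 1, 2 and 3 (log2 scale). Sedentary replicate 1 stood level with control replicate 1, and the other 2 sedentary libraries stood below all 3 control libraries. The median of the 36 other genes deviated by 0.11, 0.06 and -0.05 in the sedentary and by -0.02, 0.02 and -0.14 in the control libraries. The lowest value belonged to control replicate 3. Protein-coding genes of at least 10000 bases deviated by -0.02, -0.03 and -0.08 in the sedentary and by 0.04, 0.01 and 0.08 in the control libraries, and shorter ones by 0.02, 0.01 and 0.03 in the sedentary and -0.01, -0.01 and -0.03 in the control libraries. The heavy chains took 0.265%, 0.251% and 0.253% of the reads in sedentary libraries and 0.293%, 0.291% and 0.306% in control libraries, without overlap. All 48 genes together took 1.04%, 1.04% and 0.998% in sedentary and 1.07%, 1.06% and 1.02% in control libraries, with overlap. These shares are of the recovered reads, whereas FPKM and voom used the deposited totals. The deposited total over recovered reads was 0.953, 0.991 and 0.992 in sedentary and 1.04, 0.999996 and 1.06 in control libraries. On deposited totals the shares rise in sedentary libraries and fall in control replicates 1 and 3. The direction for all 48 genes thus depends on the total used. A library's total scales all its FPKM values alike. On recovered totals the fold changes of all genes would thus shift down together. The size of this shift was not computed, and no fit was run on recovered totals. Summed over the 36 tested genes other than heavy chains, FPKM was 3192, 3191 and 3070 in sedentary and 2894, 3027 and 2539 in control testes. Over the 9 tested heavy chains it was 193, 176 and 177 in sedentary and 196, 203 and 203 in control testes.

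**Figure D5:**
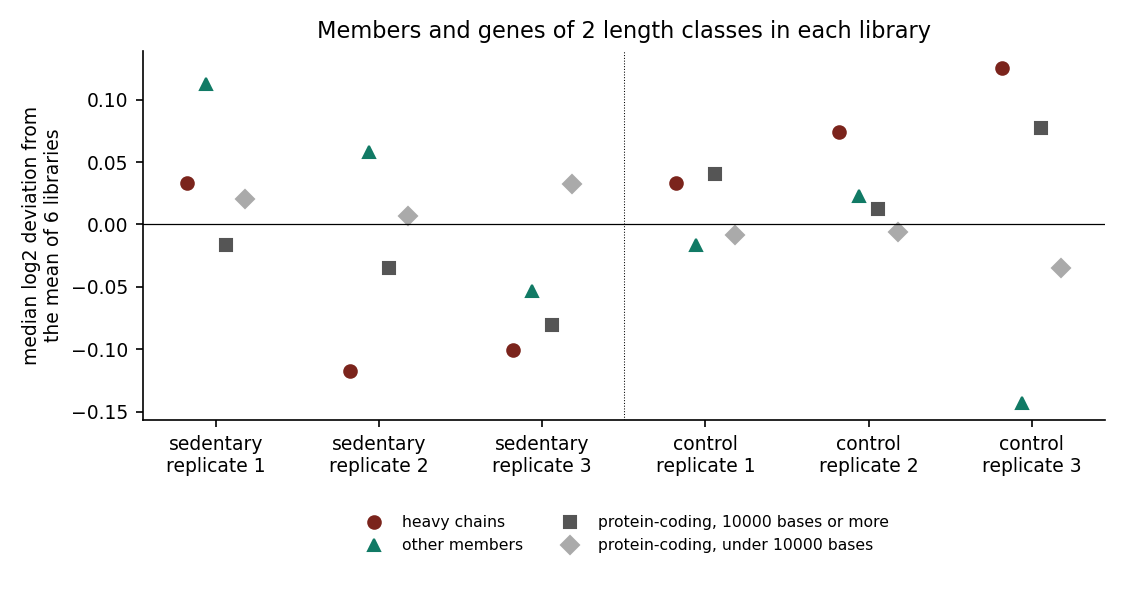
Median log2 deviation from the mean of the 6 libraries (y axis) in each library (x axis) for the 9 heavy chains, the 36 other tested genes, and protein-coding genes of at least and under 10000 bases; each point is a median over the genes of that set. Heavy chains lie at -0.12 and -0.10 in sedentary replicates 2 and 3, while sedentary replicate 1 lies at 0.03, as does control replicate 1.

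Of 45 tested members, 36 kept the sign of their log2 fold change whichever 1 of the 6 libraries was left out, 8 of 9 heavy chains among them. The exception among heavy chains was Dnah1, at 0.01 without sedentary replicate 2. The heavy chain median lay between -0.16 and -0.09 and that of the other genes between 0.04 and 0.13 in these fits. With TPM scaling the median of all tested genes was -0.09 in place of 0.01. The heavy chain median was then -0.23, with 9 of 9 below 0, and that of the other genes -0.03, with 16 of 36 above 0 and 24 of 36 above the median of all genes. The sign of the median of the other genes thus depends on the scaling.

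Further genes were read from lists of 9 kinds, with 116 tested genes. The lists cover other axoneme parts, intraflagellar transport, cytoplasmic dynein and dynactin, and transcription factors of ciliary and testis genes. Of these 74 were above 0 and 42 below, at a median fold change (log2) of 0.07; 22 were higher and 6 lower at an unadjusted p under 0.05 (limma), against 10.1% and 7.26% of all tested genes, and 0 passed the adjusted threshold on FPKM. On reads, 2 were called lower with voom, Ccdc39 and Dync2h1, against 1.12% of all tested genes. Ccdc39, which with Ccdc40 forms the ruler that spaces inner arms and spokes along the doublet, stood at 17.8, 19.2 and 13.5 FPKM in sedentary testes, against 22.9, 21.0 and 27.7 FPKM in control testes. Its groups did not overlap, and its log2 fold change was -0.50 ± 0.15 (SE), with an adjusted p of 0.207 on FPKM (limma) and 0.0396 on reads (voom). Ccdc40 stood on the other side, at 34.3, 35.8 and 34.9 FPKM in sedentary and 31.6, 32.0 and 25.5 FPKM in control testes, without overlap, at 0.24 ± 0.10 (limma, adjusted p = 0.262). Dync2h1, the motor of retrograde intraflagellar transport, of 16161 bases, stood at 9.32, 8.44 and 8.05 FPKM in sedentary and 11.1, 10.8 and 11.8 FPKM in control testes. This did not overlap and gave -0.37 ± 0.09 (SE), with an adjusted p of 0.199 on FPKM (limma) and 0.0340 on reads (voom). Once the trends with GC content and length were taken out, neither was called, at adjusted p of 0.103 for Ccdc39 and 0.220 for Dync2h1 (voom).

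By list, the outer arm docking complex had 4 of 6 genes above 0 with a median of 0.12 and 2 at an unadjusted p under 0.05, Ccdc114 at 0.28 and Ccdc151 at 0.26. Of the other subunits of the nexin-dynein regulatory complex, 8 of 10 were above 0, with a median of 0.15, and Tcte1, at 0.25, had an unadjusted p under 0.05. Proteins inside the doublets were above 0 in 12 of 15 genes, with a median of 0.13, among them Enkd1 at 0.34 and Tekt3, a tektin of the sperm tail, at 0.20. Of the central apparatus, 8 of 12 were above 0, with a median of 0.05 and Ccdc189 at 0.31. Other dynein arm and assembly genes were split 8 and 8, with a median of 0.00 and Pih1d1, a chaperone cofactor, at 0.30. Intraflagellar transport had 15 of 26 above 0, with a median of 0.03, 4 higher and 3 lower at an unadjusted p under 0.05, and Ift43, a subunit of the retrograde complex, at 0.28. Cytoplasmic dynein and dynactin had 12 of 18 above 0, with a median of 0.08 and 5 higher, among them Dynll2 at 0.24 and Dctn2 at 0.20. Transcription factors of ciliary and testis genes were split 6 and 5. Foxj1, the master factor of motile cilia, stood at 37.7, 27.8 and 30.2 FPKM in sedentary and 26.9, 27.1 and 23.4 FPKM in control testes, without overlap, at 0.29 ± 0.12 (SE; limma, adjusted p = 0.264). Mybl1, a transcription factor of pachytene spermatocytes, stood at 10.5, 11.9 and 8.72 FPKM in sedentary and 13.8, 12.1 and 14.2 FPKM in control testes, without overlap, at -0.36 ± 0.12 (limma, adjusted p = 0.219).

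Some proteins of these families stand in the table under other gene names or without a name. Protein descriptions in the table were searched for intermediate chains, assembly factors and Cfap proteins, and not for the other roles. This gave 16 genes, taken after their values were seen. Of these, 15 were tested, 6 were above 0 and 9 below, and the median log2 fold change was -0.01. None was called on FPKM, and 1 was called on reads, higher, as were 0.318% of all tested genes. That gene, listed by identifier only and described as DNAI2, an outer arm intermediate chain, stood at 25.6, 27.0 and 27.4 FPKM in sedentary testes, against 20.7, 20.7 and 19.3 FPKM in control testes. Its groups did not overlap, and the log2 fold change was 0.39 ± 0.07 (SE). The adjusted p was 0.178 on FPKM (limma) and 0.0292 on reads (voom). This gene had no GC value, so it did not enter the fits with GC and length trends removed. The inner arm intermediate chain genes Wdr63 and Wdr78 stood at 0.05 and 0.01, and Casc1, described as DNAI7, at 0.01. Wdr63, Wdr78, Wdr92, Lrrc6 and Pih1d3 also count in the list of other dynein arm genes above, which holds the untested Dyx1c1 as well.

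Dnah7 was not analysed here under its own name. As deposited, 35 unannotated loci, 33 of them on chromosome 1, are described as dynein axonemal heavy chain 7, an inner arm motor, and 33 passed the filter on low values. Their median level was 4.09, 4.0 and 3.50 FPKM in sedentary and 5.58, 5.57 and 6.59 FPKM in control testes, without overlap. Of the 33, 28 were below 0, at a median fold change (log2) of -0.40; 20 were lower at an unadjusted p under 0.05 (7.26% of all tested genes were) and 0 were called on FPKM (limma, lowest adjusted p = 0.144), while 4 were called lower on reads (voom; 1.12% of all tested genes were). These loci were taken as a list after the data were seen. The loci are between 200 and 2259 bases long, so they are not long in the table. They had no GC value, so they did not enter the fits with GC and length trends removed. They may be pieces of longer genes or of similar copies, which was not tested by sequence, so they may not be independent of each other and reads could be split among them. Their summed reads, 9129, 9999 and 7757 in sedentary and 12043, 8333 and 10293 in control libraries, made up 0.0261%, 0.0262% and 0.0227% of the recovered reads in sedentary and 0.0320%, 0.0292% and 0.0327% in control libraries, without overlap.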

How the data were processed

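The authors deposited 1 table of FPKM values, which are scaled by gene length and library total, with the lengths beside them. HISAT2, StringTie and the builds mm10 and mm39 are among the names in the submitters' processing notes; what each was used for, and its version, is not given in the sources used here. Which build the table follows is not settled, so only chromosomes are taken from it. FPKM times length gave whole reads for 100% of values in each library within a tolerance of 0.001. Small counts were more often even than odd (55.4% to 58.2%), as when both mates of a pair add to a count, so 2 reads can come from 1 molecule.

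The main test was limma 3.58.1 in R 4.3.3 with an expression trend on log2(FPKM + 0.5), two-sided, for genes that reached 0.5 FPKM in 3 or more of 6 libraries. P-values were adjusted by Benjamini-Hochberg over all 19201 genes, with a threshold of 0.05. Fold changes on this scale understate those of low genes. Limma's voom was run on these whole reads, with library totals implied by the deposited values. These deposited totals differ from the sums of recovered reads, which were used for shares of reads. Alternatives were other pseudocounts, filters and scalings, library weights, a replicate block, each library left out, and removal of trends with length, or with length and GC content of GENCODE M21 transcripts (all 45 members had a value). The fits with GC content and the fits on reads without a library were added after the data were seen. The scripts were tested on simulated data. Replicates differed by more than sampling noise (chi-square per gene 7.16 to 16.8). Promoter windows came from RefSeq. Genes named are all tested heavy chains, calls, the 3 lowest p and 2 highest levels of each role, a fixed panel (Dnai1, Dnai2, Cfap65 and Cfap61 were not matched by name) and, of each further list, calls and the 2 lowest p. The genes and lists were chosen with earlier results of these data known.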

Additional observations from a re-analysis of the deposited data

How the results depend on the processing

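The call of Dnah12 on reads, with 3 libraries a group, depends on which library is kept. Of 879 values of named genes under alternatives, 861 kept their direction and side of the threshold, and Dnah12, Ccdc39 and Dync2h1 passed on the reads but not on FPKM. The sign turned for Dnah17 (0.071), Dnah1 (0.054) and Dnah10 (0.049) with the length trend removed. It turned for Cfap36 (0.017), Cfap43 (0.044) and Dnaaf2 (-0.016) with GC and length trends removed, for Dnaaf2 (-0.022) and Cfap70 (-0.060) with TPM scaling, for Cfap70 (-0.042) with quantile normalization and for Cfap206 (0.022) with library weights. Over the fits that left out 1 library, Cfap206 lay between -0.050 and 0.055 (above 0 without control replicate 2, at 0.012, or sedentary replicate 3), Cfap36 between -0.12 and 0.053 and Cfap43 between -0.12 and 0.0028 (both above 0 without sedentary replicate 3), and Dnah1 between -0.075 and 0.0071 (above 0 without sedentary replicate 2). The cause was not tested.

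Over all genes, 0 were called higher and 5 lower on FPKM; voom gave 61 and 216, library weights 2 and 14, and removal of the length trend or of GC and length trends 0 lower. No filter gave 1 lower, a filter of 1 FPKM gave 3, and leaving out a library gave 0 to 1 higher and 0 to 1 lower. On reads, genes with a GC value gave 36 higher and 89 lower, and 6 and 50 with GC and length trends removed. Leaving out a library gave, on reads, 2 higher and 74 lower (control replicate 1), 457 and 601 (control replicate 2), 4 and 38 (control replicate 3), 6 and 44 (sedentary replicate 1), 418 and 361 (sedentary replicate 2) and 1 and 21 (sedentary replicate 3). Of the members, voom called 1 lower on the reads, and 0 with GC and length trends removed; leaving out a library gave 0 to 4 higher (4 without control replicate 2, 2 without sedentary replicate 2) and 0 to 1 lower. Of the genes in the further lists voom called 2 lower. The replicate block gave 0 genes called lower over all genes, against 5 without it, and changed no call among the members. Same-numbered libraries correlated at -0.0674, -0.0875 and -0.0346 in their deviations from the group means, which gave no sign of pairing by number. With 3 libraries a group this cannot exclude a pairing.

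The heavy chain median of -0.12 stood at -0.011 with the length trend removed, -0.23 with TPM scaling and -0.20 with quantile normalization. With TPM scaling the median of the other members was -0.027, of Cfap genes -0.097, assembly factors 0.087, Dnaic1 0.015, light chains 0.12 and radial spokes 0.10. Quantile normalization gave 0.031 for Dnaic1 and 0.15 for light chains, and removal of GC and length trends 0.061 for assembly factors and 0.16 for light chains.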
